A study of Rattus norvegicus with 102 samples.

Results

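The 9 interferon-stimulated genes Ifit2, Ifit3, Irf7, Irf9, Isg15, Stat2, Bst2, Usp18 and Mx2 were followed in the hippocampus of ageing rats, in the subfields CA1, CA3 and dentate gyrus (DG). The 9 were named individually, and all were found among the 26284 genes of the Illumina table and the 26341 genes of the Ion Proton table. The animals were male Fisher 344 rats, 10 of them young (5 to 6 months) and 24 aged (17 to 22 months). A water maze test had divided the aged rats into 12 unimpaired and 12 impaired animals. No rat was described as carrying an altered gene or receiving a drug, and each gave 1 library of its dissected CA1, CA3 and DG tissue, so each subfield was represented by 34 libraries. The same RNA was read as poly-A mRNA on the Illumina and the Ion Proton platforms, and a further table labelled WT held the same number of libraries. All values below are normalised reads, that is reads divided by a size factor per library, and a difference is given on the log2 scale after adding 1.

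Interferons are secreted proteins by which cells warn their neighbours of a virus. Type I interferon binds a receptor whose kinases phosphorylate STAT2, which joins IRF9 in a complex that enters the nucleus and binds a short repeat, the interferon-stimulated response element, beside its target genes. In brain tissue the response is known from infection, injury and ageing, and microglia, astrocytes, endothelium and neurons can all carry it.

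Among the members, Stat2 and Irf9 encode parts of the complex that carries the signal. Irf7 encodes a factor that raises further interferon transcription. Ifit2 and Ifit3 encode proteins that bind viral RNA, Mx2 a dynamin-like GTPase, Bst2 the membrane protein tetherin, and Isg15 a ubiquitin-like modifier. Usp18 encodes the protease that takes Isg15 off its substrates and dampens signalling at the receptor. RefSeq promoter windows (assembly GRCr8, 250 bases before to 50 after the start of each gene) were found for 5 of the 9 members, namely Ifit3, Irf7, Irf9, Stat2 and Bst2. The core of the response element was searched as GAAANNGAAA, or TTTCNNTTTC when read on the other strand, with overlapping matches counted. The stretches around each match are shown to place these letters beside the start of the gene, with the matched bases in capitals.
Ifit3: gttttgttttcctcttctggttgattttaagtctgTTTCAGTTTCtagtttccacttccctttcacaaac
Irf7: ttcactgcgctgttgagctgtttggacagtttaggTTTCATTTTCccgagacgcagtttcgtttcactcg
Bst2: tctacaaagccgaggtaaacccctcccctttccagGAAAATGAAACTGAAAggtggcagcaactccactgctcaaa

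The Ifit3 stretch is chr1:241527247-241527316 on the plus strand, and its match began 44 bases before the start. The Irf7 stretch is chr1:205800058-205800127 on the minus strand, with the match 69 bases before the start. The Bst2 stretch is chr16:18255058-18255133 on the minus strand and held 2 overlapping matches, at 131 and 125 bases before the start. The motif was present in 3.92% of the 33469 promoter windows of the table. The windows of Irf9 and Stat2 did not hold these letters. The windows of Ifit2, Isg15, Usp18 and Mx2 were not analysed here. A match is a description of the letters, not a measured binding site.

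Illumina libraries held 3246922 to 42750899 reads (median 10745742), Ion Proton libraries 4470473 to 21434160 reads (median 9738395) and WT libraries 3539310 to 20625745 reads (median 8068863). All 9 members passed the filter of a mean of 10 normalised reads in both poly-A tables, while Bst2 did not in the WT table. By the markers of their principal neurons, 10 libraries lay nearer another subfield than the labelled one in both poly-A tables (1 CA1, 5 CA3, 4 DG). In 10 libraries the summed markers of leptomeninges or choroid plexus exceeded 10 times the median of the subfield. In 5 Ion Proton libraries more than 50 of 12358 well-expressed genes were listed at 0, against 1 in the median library. These were the CA1 libraries of rats R2230, R2232 and R9874 and the CA3 libraries of rats R1931 and R9781, all aged. In bulk tissue, fewer cells of a type and less RNA per cell cannot be told apart.

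The first comparison asked whether the members differed between subfields. The rule was an adjusted p under 0.05 with 1 direction in both poly-A tables (limma, Benjamini-Hochberg adjustment). The main fit treated the libraries as unpaired, without the rat as a block. Irf9 was higher in CA1 than in DG and was the single member that met it, so that 0 of 9 members were called between CA1 and CA3, 1 of 9 between CA1 and DG, and 0 of 9 between CA3 and DG. Over all genes the rule called 14.4%, 26.9% and 28.5% of 13907 genes in the same order, so the members' counts of 0, 1 and 0 lay under the background shares. At an unadjusted p under 0.05 in the Illumina table alone (limma), 3, 5 and 3 of 9 members passed in that order, against 43.6%, 60.1% and 60% of 14179 genes. Their values are given below. The plot of all members by library shows how widely the subfields overlapped.

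**Figure D1:**
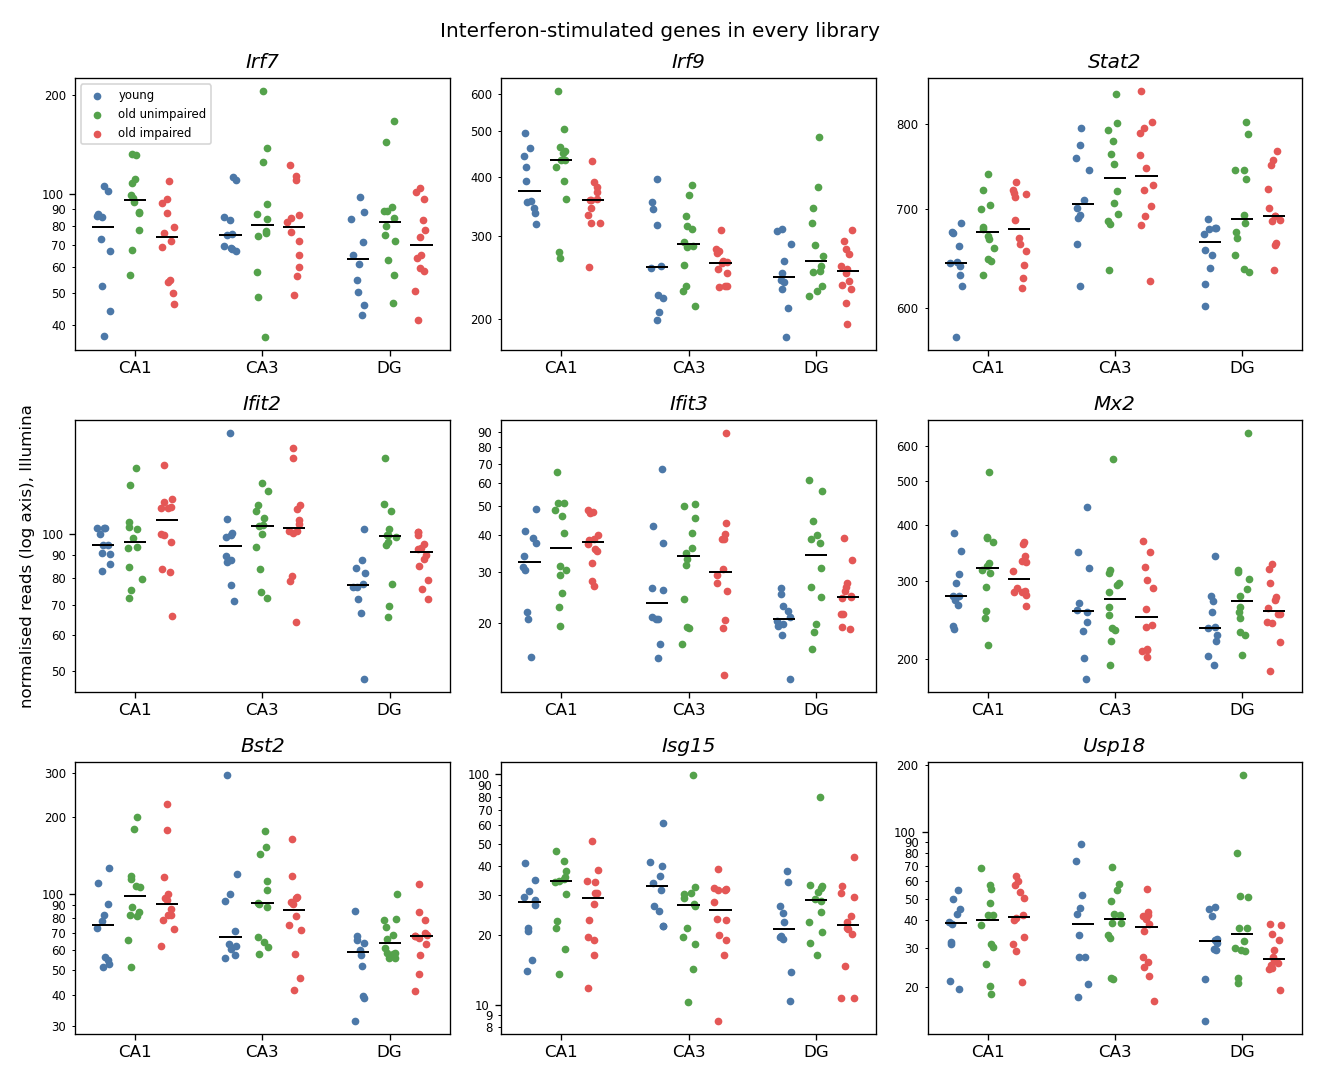
Normalised Illumina reads (log axis) of the 9 members in CA1, CA3 and DG, with 1 dot per library in the colour of its group (young, old unimpaired, old impaired) and a bar at the group median. Irf9 sits higher in CA1 (median 376) than in CA3 (265) and DG (254), and single libraries of Usp18, Mx2 and Bst2 stand far above the rest.

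Irf9, the DNA-binding subunit of the interferon complex, lay at 257, 376 and 609 normalised reads in CA1 (lowest, median and highest of 34 libraries). In CA3 the same values were 199, 265 and 397, and in DG 183, 254 and 487. The order was CA1 above CA3 and DG, which did not differ beyond their spread, and the ranges of the 3 subfields overlapped. Irf9 averaged 388 ± 73.5 (CA1), 277 ± 50.8 (CA3) and 268 ± 56.5 (DG; SD, n = 34). CA1 exceeded DG by 0.54 on the log2 scale (95% interval 0.41 to 0.66, adjusted p = 8.72e-12, limma), and 34 of 34 CA1 libraries lay above the DG median. In the Ion Proton table the difference was 0.38 (adjusted p = 0.00615), and it was 0.54 (adjusted p = 7.65e-09) in the WT table. Without the 10 libraries nearer another subfield the Illumina difference was 0.56.

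CA1 exceeded CA3 in Irf9 by 0.48 (95% interval 0.36 to 0.61, adjusted p = 9.03e-10, limma), with 33 of 34 CA1 libraries above the CA3 median. The Ion Proton difference of 0.29 had an adjusted p of 0.063, which left this comparison uncalled. With the rat as a replicate block, CA1 against CA3 was called for Irf9, and Mx2 was called there and for CA1 against DG. CA3 and DG differed in Irf9 by 0.05 (adjusted p = 0.486, limma).

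Stat2, the partner of Irf9, was lower in CA1 than in CA3. CA1 libraries had 573, 668 and 739 (lowest, median, highest), CA3 libraries 621, 724 and 842, and DG libraries 601, 682 and 802. CA3 was the highest of the 3, CA1 and DG did not differ beyond their spread, and all ranges overlapped. CA1 lay below CA3 by a log2 difference of -0.13 (adjusted p = 1.48e-05, limma), and CA3 above DG by 0.08 (adjusted p = 0.00213). The Ion Proton differences had the same signs, -0.16 and 0.11, with adjusted p-values of 0.0816 and 0.195.

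Bst2, which holds budding virus at the cell surface, tended to be lowest in DG. CA1 libraries had 51.3, 85.8 and 225, CA3 libraries 41.8, 89.9 and 294, and DG libraries 31.5, 64.7 and 110. CA1 and CA3 lay above DG by 0.53 (adjusted p = 0.000124, limma) and 0.45 (adjusted p = 0.000872) in the Illumina table. The Ion Proton differences were 0.37 and 0.19, with adjusted p-values of 0.349 and 0.654, so neither was called.

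Markers of other cells differed between the subfields as well. In CA1, CA3 and DG the medians of the summed Illumina markers over 34 libraries were 6084, 5952 and 5162 for microglia, 38640, 36668 and 34924 for astrocytes, and 108590, 131464 and 64553 for oligodendrocytes. Endothelium markers stood at 2806, 2139 and 2169, leptomeninges markers at 483, 582 and 332, and T cell markers at 43.1, 5.74 and 7.42. The part of these differences in the members' subfield values was not tested.

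Among the antiviral effectors, Ifit3 and Mx2 were higher in CA1 than in DG in the Illumina table, by 0.42 (adjusted p = 0.00289, limma) and 0.22 (adjusted p = 0.00848). For Ifit3 the Ion Proton difference was 0.20 (adjusted p = 0.532) and the WT difference 0.45 (adjusted p = 0.00012). Ifit3 lay at 15.4, 36.5 and 65.4 in CA1 and at 12.9, 24.6 and 61.6 in DG. Mx2 had 215, 303 and 523 (CA1), 181, 259 and 560 (CA3) and 189, 255 and 641 (DG). Both genes' ranges overlapped in every pair of subfields. Mx2 neighbours Mx1, a close relative, and reads that match both genes could be assigned to either, so its values are uncertain to that extent.

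Ifit2 had 66.1, 98.7 and 141 (CA1), 64.2, 101 and 166 (CA3) and 48.1, 88.9 and 147 (DG). It was higher in CA1 and CA3 than in DG by 0.16 (adjusted p = 0.0373, limma) and 0.19 (adjusted p = 0.0124) in the Illumina table, with Ion Proton differences of 0.06 and 0.19 that did not pass. Irf7, Isg15 and Usp18 passed in no pair of subfields in any of the 3 tables. Their Illumina medians in CA1, CA3 and DG were 85.5, 77.2 and 73.1 for Irf7, 29.7, 27.6 and 23.6 for Isg15, and 40.3, 38.8 and 30.6 for Usp18. In the Illumina table all 9 members had a higher mean log2 level in CA3 than in DG, with a median difference of 0.15 against 0.01 over all genes. This held for 5 of 9 members in the Ion Proton table (median 0.01) and for 7 of 8 in the WT table (median 0.09). Mx2 was lower in CA3 than in DG in both of these tables, and Ifit3, Isg15 and Usp18 were lower in the Ion Proton table. Missing calls do not show that the subfields were alike, and the 95% interval of Isg15 for CA1 against DG ran from -0.11 to 0.44.

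The rest of the pathway was described by lists of related genes. No interferon ligand among the 6 that were listed in the table reached the filter. Of 7 receptor and kinase genes, 2 were lower in CA1 than in CA3, the interferon gamma receptor chain Ifngr2 (by -0.14) and the kinase Jak1 (by -0.23). Of 9 related transcription factors, 4 differed between CA1 and DG, among them Irf8 (0.36) and Rela (0.35) higher and Irf2 (-0.23) lower in CA1. Of 39 further interferon-stimulated genes, 2 were called between CA1 and CA3, 6 between CA1 and DG, and 9 between CA3 and DG. The 2, 6 and 9 of 39 were smaller shares than the 14.4%, 26.9% and 28.5% of all genes. The 4 of 9 factors and the 2 of 7 receptor and kinase genes stand beside 26.9% and 14.4% of all genes.

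Among the further interferon-stimulated genes, Mx1, the neighbour of Mx2, was lower in CA1 than in CA3 by a log2 difference of -2.46 and lower than in DG by -1.64. Mx1 averaged 21.8 ± 12.5 (CA1), 161 ± 120 (CA3) and 72.1 ± 42.4 (DG; SD, n = 34). The scramblase gene Plscr1 was also lower in CA1 than in CA3 (-0.90) and DG (-1.14). For Mx2 the difference between CA1 and CA3 was 0.19 and was not called. Of 7 genes of class I antigen presentation, 3 were called higher in CA3 than in DG, beside 28.5% of all genes called in either direction: the immunoproteasome subunit Psmb9 (0.40), the regulator Nlrc5 (0.36) and the peptide transporter Tap1 (0.18).

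The second comparison set the 24 aged against the 10 young rats within each subfield. Genes were called at an adjusted p under 0.05 in the Illumina table, and by a retest that required an Illumina p under 0.01 and a one-sided Ion Proton p under 0.05 in the same direction. No member was called or retested in CA1, CA3 or DG by limma. Over all genes, 0.338% of 14191 were called and 0.832% retested in CA1, 0% of 14246 and 0.393% in CA3, and 0.3% of 14019 and 1.07% in DG. At an unadjusted Illumina p under 0.05 2 of 9 members passed in CA1 and 4 in DG but 0 in CA3. All 6 were higher in aged rats. Over all genes that threshold was passed by 6.15% (CA1), 3.31% (CA3) and 5.2% (DG), and by 4.13%, 1.92% and 3.4% with the higher level in aged rats. The 4 members in DG were Ifit2, Ifit3, Stat2 and Bst2, which share libraries. By adjusted p, edgeR and DESeq2 also called 0 members in each subfield. In the retest edgeR gave 0 members throughout, and DESeq2 gave 1, Ifit3 in DG.

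In DG the mean log2 level of all 9 members was higher in the aged rats in the Illumina table, with a median difference of 0.19 against -0.002 over all genes. Without rat R1930 all 9 were higher, with a median of 0.12. For Usp18 the aged median of 29.5 lay below the young median of 32.0, and its difference of 0.13 was 0.03 without rat R1930, whose DG library held 181. In CA1 8 of 9 members were higher, with a median of 0.13 against -0.005 over all genes, and in CA3 7 of 9, with 0.02 against -0.01. In CA3 it was 5 of 9 (median 0.003) without rat R2185 and 8 of 9 (median 0.07) without rat R9876. The Ion Proton medians in CA3 were -0.18 over all rats, -0.24 without R2185 and -0.005 without R9876. The Ion Proton values were higher in aged rats for 8 of 9 members (DG), 4 of 9 (CA1) and 3 of 9 (CA3). The WT values were higher for 8 of 8, 7 of 8 and 4 of 8. The Ion Proton libraries with many genes at 0 were CA1 and CA3 libraries of aged rats, and their part in these values was not tested. The members share libraries and vary together, so these counts are a description and carry no test. Microglia can carry this response, and the sum of the 8 microglia markers had a higher median in aged rats in each subfield. The medians of the sum were 5421 against 4783 in DG, 6442 against 5395 in CA1 and 6363 against 5397 in CA3. In DG that sum ranged from 4221 to 6843 in aged and from 3923 to 5807 in young rats. The 4 of 4 astrocyte markers summed to medians of 36532 against 32318 (DG), 38999 against 34403 (CA1) and 40073 against 31074 (CA3) in aged against young rats. In DG the astrocyte sum ranged from 27003 to 42485 in aged and from 27235 to 37882 in young rats. Blood markers had medians of 635 against 531 (DG), 1012 against 710 (CA1) and 950 against 554 (CA3) in aged against young rats, and choroid plexus markers 271 against 94.0 (DG), 237 against 344 (CA1) and 318 against 233 (CA3). Oligodendrocyte markers stood at 113714 against 92084 in CA1 and differed less in the other subfields. The part of these marker differences in the members' values was not tested.

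**Figure D2:**
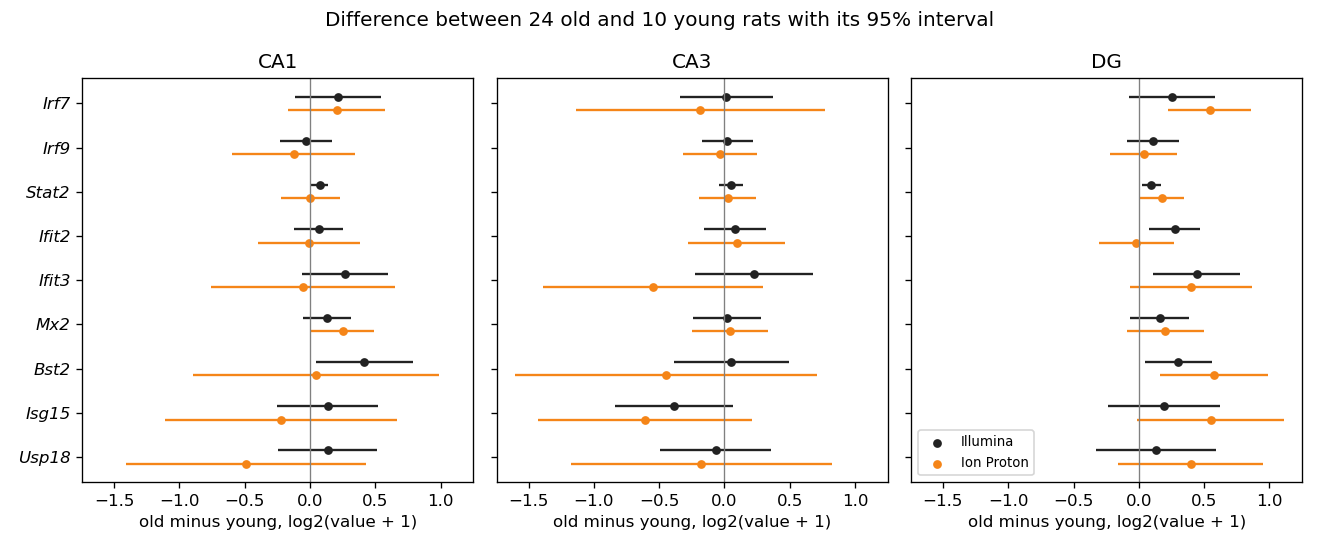
Difference between aged and young rats (log2, x axis) for each member in CA1, CA3 and DG, with points for the Illumina and Ion Proton tables and bars for the 95% interval. In DG all 9 Illumina points lie above 0, and most intervals in all 3 subfields include 0.

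Ifit3 in DG lay at 12.9, 20.7 and 26.5 in young and at 16.3, 26.1 and 61.6 in aged rats (lowest, median, highest). The ranges overlapped, and the aged median lay just under the highest young value. The difference was 0.44 (p = 0.0102, adjusted p = 0.564, limma) in the Illumina table. It was 0.40 (p = 0.0921) in the Ion Proton and 0.10 (p = 0.564) in the WT table.

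Stat2 in DG lay at 601, 665 and 689 in young and at 634, 692 and 802 in aged rats. The groups overlapped, and the aged median lay above the highest young value. The difference was 0.10 (p = 0.0109, adjusted p = 0.574, limma), with 0.18 (p = 0.038) in the Ion Proton table. The Illumina p missed the 0.01 of the retest. In CA1 the Stat2 difference was 0.08 (p = 0.0215, adjusted p = 0.658, limma) and the Ion Proton value 0.003.

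Bst2 in DG lay at 31.5, 58.7 and 85.8 in young and at 41.6, 67.5 and 110 in aged rats. The ranges overlapped over most of their length. The difference was 0.30 (p = 0.0221, adjusted p = 0.765, limma), and 0.57 (p = 0.00767) in the Ion Proton table. Without the 7 most deeply sequenced rats the Illumina difference was 0.08 (p = 0.543). In CA1 Bst2 differed by 0.42 (p = 0.0293, adjusted p = 0.713, limma), and by 0.18 (p = 0.19) without the libraries with leptomeninges or choroid plexus markers.

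Ifit2 in DG lay at 48.1, 77.2 and 102.2 in young and at 65.7, 94.7 and 147 in aged rats. The difference was 0.27 (p = 0.00777, adjusted p = 0.49, limma), the smallest p of the members, but -0.02 in the Ion Proton table. The rats carry numbers either below or from 9000 up, and within these 2 series the DG difference of Ifit2 was 0.53 and 0.01. Irf7 in DG was higher in aged rats by 0.26 (p = 0.123, limma) in the Illumina and by 0.54 (p = 0.0014) in the Ion Proton table. Isg15 in CA3 had a median of 32.6 in young and 27.1 in aged rats, and 2 of 24 aged libraries lay above the young median. That difference of -0.39 had an unadjusted p of 0.0938 (limma), and it was -0.29 (p = 0.216) without the young rat R9876, whose library held 61.4. Without the aged rat R2185, whose library held 99.5, it was -0.47 (p = 0.0173). The Isg15 difference was -0.61 (p = 0.143) in the Ion Proton and -0.04 (p = 0.86) in the WT table.

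Whether the age difference itself varied with the subfield was tested as an interaction for each of the 3 pairs of subfields. By limma, 0% of 14179 genes were called in each of the 3, and 0 of 9 members reached an unadjusted p under 0.05, against 1.93%, 0.353% and 1.06% of genes between CA1 and CA3, between CA1 and DG, and between CA3 and DG. By edgeR and DESeq2, 0 members were called as well. For Isg15 the age difference in CA3 was below that in DG by -0.58 (95% interval -1.17 to 0.02, p = 0.057, limma).

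In the related lists, age differences in DG were called for genes of antigen presentation. Psmb9 rose by 0.57, from 28 ± 7.7 to 41.6 ± 8.39 normalised reads (adjusted p = 0.0163, limma), and Tap1 by 0.41, from 73.6 ± 14.3 to 97.8 ± 15.9 (adjusted p = 0.0264; SD, n = 10 and 24). These were 2 of 7 genes of the list, beside 0.3% of all genes called and 1.07% retested in DG. Of 39 further interferon-stimulated genes, Lgals3bp, which encodes a secreted galectin-binding protein, was called (0.31, adjusted p = 0.0108, limma), and Ifi27 was retested as well. The factors Irf8 (0.37), Irf1 (0.16) and Stat3 (0.15) were retested, 3 of 9, beside the same 1.07% of all genes. In CA1 the retest gave Irf5 and Irf8 among the factors, Igtp among 41 further interferon-stimulated genes, and Tap1. Of all genes 0.832% were retested there. In CA3 no gene of any list was called or retested by limma.

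The third comparison set the 12 impaired against the 12 unimpaired aged rats. By limma no member was called or retested, and by adjusted p 0% of genes were called in any subfield (14205 in CA1, 14232 in CA3, 14011 in DG). The retest gave 0.62% of genes in CA1, 0.0211% in CA3 and 0.121% in DG. At an unadjusted Illumina p under 0.05 2 members passed in CA1 and 1 in DG but 0 in CA3, and all 3 were lower in impaired rats. Over all genes the threshold was passed by 5.71% (CA1), 1.4% (CA3) and 3.85% (DG), and by 2.92%, 0.527% and 2.07% with the lower level in impaired rats. By adjusted p edgeR and DESeq2 called 0 members, and in the retest both gave 1, Usp18 in DG. No gene of the related lists was called or retested by limma. The impaired rats had a lower mean log2 level than the unimpaired in 8 of 9 members in DG, 7 of 9 in CA3 and 5 of 9 in CA1. The members' median differences were -0.19 (DG), -0.09 (CA3) and -0.01 (CA1), against -0.002, -0.002 and -0.004 over all genes. Without rat R1930, an unimpaired animal with high values in DG, 7 of 9 were lower in DG, with a median of -0.12, and the Ion Proton median in DG moved from -0.20 to -0.08. Without rat R2185, also unimpaired, 4 of 9 were lower in CA3 in the Illumina table, with a median of 0.0009. The Ion Proton median in CA3 moved from -0.36 to -0.30. The members share libraries, so these counts too are a description with no test.

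Irf9 in CA1 lay at 270, 434 and 609 in unimpaired and at 257, 357 and 432 in impaired rats. No impaired library (0 of 12) reached the unimpaired median, while the lower parts of the ranges overlapped. The difference was -0.24 (p = 0.0302, adjusted p = 0.848, limma), and -0.29 (p = 0.00576) without the libraries nearer another subfield. It was 0.06 in the Ion Proton table and -0.30 (p = 0.013) in the WT table. The Ion Proton fit held the CA1 libraries of unimpaired rats R2230 and R2232 and impaired rat R9874, with many genes at 0. Their part in that value was not tested, and without rat R2232 Irf9 met the retest in CA1. In DG the Irf9 differences were -0.19 (p = 0.0825), -0.39 (p = 0.00795) and -0.31 (p = 0.0334) in the Illumina, Ion Proton and WT tables by limma. Rat R1930, an unimpaired animal, held the highest Irf9 value in both subfields. Without it the Illumina difference was -0.19 (p = 0.0637) in CA1 and -0.12 (p = 0.179) in DG, and the Ion Proton difference in DG was -0.30 (p = 0.0146).

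Irf7 in CA1 lay at 57, 96.1 and 132 in unimpaired and at 46.5, 74.3 and 110 in impaired rats. The ranges overlapped. The difference was -0.38 (p = 0.0166, adjusted p = 0.736, limma), and -0.14 (p = 0.506) in the Ion Proton table. Usp18 in DG lay at 20.9, 34.5 and 181 in unimpaired and at 19.3, 26.8 and 38.3 in impaired rats. Its difference was -0.51 (p = 0.0474, limma), and -0.32 without rat R1930, whose library held the value of 181.

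Rats of the 2 number series were compared because age and maze groups were spread over both, with 18 rats numbered below 9000 and 16 from 9000 up. The lower series held 5 young and 13 aged rats and the upper 5 young and 11 aged. The study design describes animals of 2 sites, Florida and Arizona, in groups of those sizes, but the labels do not tie a rat or a number to a site. With group as a covariate, 35.1% of genes differed in CA1, 51.8% in CA3 and 30.6% in DG (limma, adjusted p under 0.05), and among the members 2, 4 and 1 of 9 did. The members' shares lay below these. In CA3 Ifit3 was higher in the upper series, at 41.4 ± 17.4 against 25.1 ± 8.92 (SD, n = 16 and 18), a difference of 0.68 (adjusted p = 0.00127, limma). The WT table gave -0.01 for the same difference. Stat2 was lower in the upper series in all 3 subfields, by -0.07, -0.13 and -0.09 in CA1, CA3 and DG, but the CA1 difference was 0.02 in the Ion Proton table.

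Each member's level in one subfield was also set against its level in another subfield of the same rat. Over the 34 rats, 26 of 27 correlations between subfields (9 members, 3 pairs of subfields) were positive in the Illumina table. Permutation tests gave an adjusted p under 0.05 for Pearson's r in 6 of the 27 and for Spearman's rho in 11. For CA1 with CA3, Ifit2 had r = 0.49 and rho = 0.47 (adjusted permutation p = 0.0313 and 0.0359). Ifit3 had 0.50 and 0.59 (0.0313 and 0.00567), Irf7 0.42 and 0.41 (0.0388 and 0.0396), and Mx2 0.50 and 0.61 (0.0388 and 0.00567). For CA1 with DG, Irf7 had 0.52 and 0.49 (0.0313 and 0.0326), and Usp18 0.47 and 0.45 (0.0388 and 0.0359). For CA3 with DG no r passed, and the median over members was 0.16 against 0.42 for CA1 with CA3.

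Genes in general were positively correlated between a rat's subfields in the Illumina table. Over 14179 genes the median r was 0.19 for CA1 with CA3, 0.17 for CA1 with DG, and 0.13 for CA3 with DG, with 76.7%, 75.1% and 67.4% of genes above 0. The members' medians were 0.42, 0.41 and 0.16. An r of at least 0.42, the lowest that passed among the members, was reached by 4, 4 and 2 of 9 members and by 18.8%, 16.8% and 13.2% of genes. In the Ion Proton table the members' medians were 0.07, 0.19 and 0.21, against 0.12, 0.09 and 0.07 over 15282 genes. For CA1 with CA3 the members' median there lay below that of genes in general. The Ion Proton libraries with many genes at 0 were CA1 or CA3 libraries, and their part was not tested. Over the 8 members tested in the WT table the medians were 0.20, 0.13 and 0.17, against 0.13, 0.10 and 0.06 over 13655 genes. The genes share libraries and depth, and these values carry no test.

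Without the 2 rats farthest from the median of the first subfield, r was 0.35 for Ifit2, 0.46 for Ifit3, 0.32 for Irf7 and 0.47 for Mx2 in CA1 with CA3. In CA1 with DG, r was then 0.43 for Irf7 and 0.47 for Usp18. Within the lower and the upper number series, r for CA1 with CA3 was 0.44 and 0.45 for Ifit2, 0.41 and 0.43 for Ifit3, 0.51 and 0.49 for Irf7, and 0.38 and 0.50 for Mx2. For CA1 with DG it was 0.48 and 0.50 for Irf7, and 0.55 and 0.38 for Usp18. Of the 27 Ion Proton values 0 passed. Without the 7 rats with a library nearer another subfield, 13 passed in the Illumina table.

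**Figure D3:**
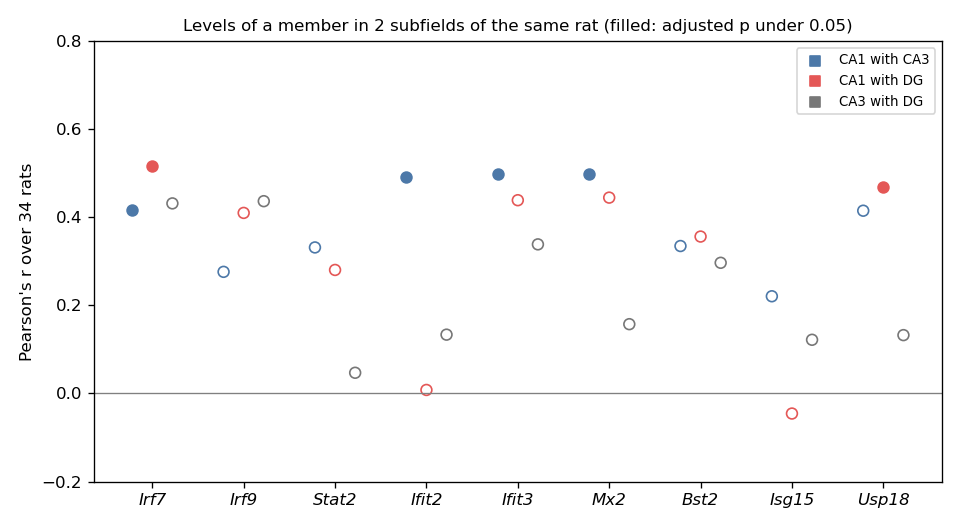
Pearson's r between the levels of each member in 2 subfields of the same rat (Illumina, 34 rats), for CA1 with CA3, CA1 with DG, and CA3 with DG, with filled points where the adjusted permutation p is under 0.05. Of the 27 points 26 lie above 0 and 6 are filled, none of them for CA3 with DG.

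The share of a gene's variance that lay between rats, after group and subfield were taken out, had a median of 32.9% over the 9 members in the Illumina table and 14.4% over all genes. In the Illumina table it was highest for Irf7 (45%) and Ifit3 (40.6%) and lowest for Isg15 (10.3%), which was the single member below the median of all genes. The members' median was 12.7% in the Ion Proton table and 15.5% over the 8 members tested in the WT table, against 8.21% and 7.6% for all genes. The order of the members changed between tables, with Bst2 highest in the Ion Proton table (20.02%) and Mx2 highest in the WT table (35.9%). In the Ion Proton table Ifit2 and Isg15 stood at 0% and Irf7 at 7.57%, below the median of all genes there, and in the WT table Ifit2 stood at 0% and Usp18 at 0.701%. This share is a description with no test.

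Within libraries, after subfield and group means were removed, the 36 pairs of members had a median r of 0.34 over all Illumina libraries, with 33 pairs positive and 9 above 0.5. The pairs share libraries and depth, and the value is a description. Usp18 with Mx2 (0.70), Irf7 with Usp18 (0.67), and Irf7 with Mx2 (0.62) were the highest. In the same order these pairs had r of 0.11, 0.58 and 0.21 in the Ion Proton table and 0.63, 0.62 and 0.69 in the WT table. Stat2 had r of -0.21 with Mx2, 0.01 with Irf7 and 0.30 with Ifit2 in the Illumina table. In the Ion Proton table Stat2 had r of -0.31 with Mx2, 0.32 with Irf7, -0.08 with Ifit2, 0.54 with Usp18 and 0.62 with Bst2.

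The genes most like each member over those libraries were found among 14179 genes. For Usp18 they were Oasl2 (r = 0.78), Oas1b (0.75) and Rsad2 (0.67), for Mx2 they were Ifi44 (0.71), Oasl2 (0.69) and Rsad2 (0.69), and for Irf7 they were Ifi44 (0.67), Ifih1 (0.65) and Dhx58 (0.63). Oas1b and Oasl2 encode members of the oligoadenylate synthetase family, Rsad2 encodes viperin, and Ifih1 and Dhx58 encode sensors of viral RNA. For Isg15 the genes were Ifi44 (0.59), Oas1a (0.55) and Oasl2 (0.55). For Bst2 they were RT1-CE16 (0.81), a class I histocompatibility gene, Parp14 (0.79) and the complement gene C2 (0.77). For Ifit3 they were Herc6 (0.63), Gpr116 (0.61) and Mrvi1 (0.61).

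Stat2, Irf9 and Ifit2 had other neighbours. For Stat2 they were Fads3 (0.58), Myadm (0.57) and Amph (0.56), for Irf9 they were Arhgap12 (0.61), Dusp6 (0.61) and Ptpn1 (0.61), and for Ifit2 they were Epm2aip1 (0.51), Maoa (0.50) and Ssr1 (0.49). Part of this likeness did not recur across tables. For Usp18 with Oasl2, r was 0.01 in the Ion Proton and 0.56 in the WT table.

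Single libraries carried the highest values. A member was counted as raised in a library when it exceeded 2 times the median of the other libraries of its subfield in both poly-A tables. In 94 libraries no member was raised and in 5 libraries 1 was. In the remaining 3 libraries 3, 4 and 5 of the 9 were raised. These 3 were chosen after their values were seen, so their counts carry no test. The CA1 library of rat R9869, an old unimpaired animal, had 1 member raised but was the highest of the CA1 libraries for Ifit3, Irf7, Usp18 and Mx2 in the Illumina table. By its principal neuron markers that library lay nearer DG, the DG library of the same rat lay nearer CA1, and its choroid plexus markers were 22.7 times the CA1 median. The part of these in its values was not tested.

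**Figure D4:**
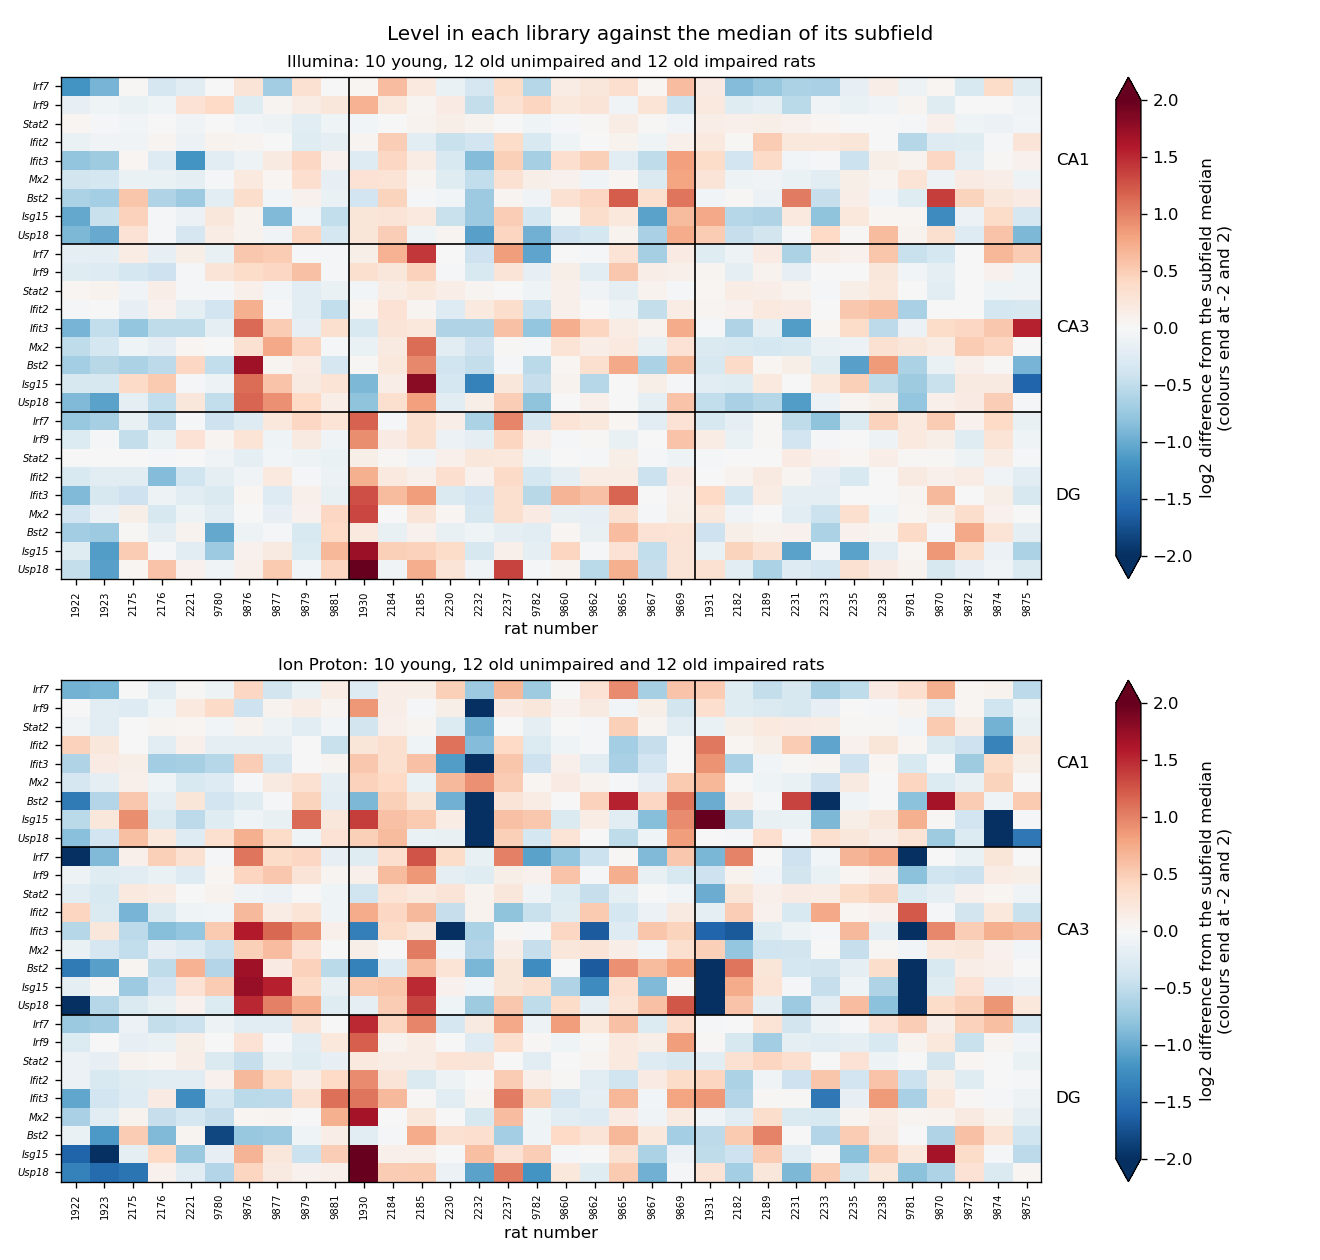
Log2 difference of each member from the median of its subfield (colour, ending at -2 and 2) for the 34 rats in columns and the 9 members in CA1, CA3 and DG in rows, in the Illumina and the Ion Proton table. The DG library of rat R1930 and the CA3 libraries of rats R2185 and R9876 show raised values over several members. Several dark blue cells of the Ion Proton panel belong to the libraries with many genes at 0.

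The DG library of rat R1930, an old unimpaired animal, had 5 of 9 members raised, against a background of 0.216% of 13907 genes. Usp18 stood at 181 (others 14 to 79.9, median 29.8), Mx2 at 641 (189 to 341, median 255) and Irf7 at 167 (41.6 to 144, median 72). Isg15 stood at 79.6 (10.4 to 43.9, median 22.9) and Ifit3 at 61.6 (12.9 to 56.4, median 24.5). All 5 were the highest of the 34 DG libraries in the Illumina table. In the WT table the same library had Usp18 at 117 (others 7.52 to 39.8) and Mx2 at 476 (156 to 285).

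Of 39 further interferon-stimulated genes in that library 7 were raised: Oas1b (119 against a median of 15.6), Oas1a (71.4 against 13.3), Rsad2 (119 against 21.7), Ifi44 (282 against 103), Oasl2 (126 against 54.8), Rtp4 (88.7 against 39.2) and Mx1 (146 against 63.7). The sensor Dhx58 stood at 128 against 51.9. Oas1a and Oas1b are close copies of each other, and reads that match both could be assigned to either. No gene of the lists of receptors, factors, class I presentation or negative regulators was raised. In the same rat, CA1 had Usp18 at 47.8 and Mx2 at 373, and CA3 had 21.9 and 235, within the range of the other libraries. Irf9 was the exception, at 609 in CA1 and 487 in DG.

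The summed microglia markers of that DG library were 5129, against a median of 5195 in the others. Astrocyte markers stood at 35121 against 34726, endothelium markers at 1319.5 against 2183, and leptomeninges markers at 99.8, the lowest of all (others 137 to 604). The 4 T cell markers, of which 1 had a mean of at least 10, summed to 60.4 against a median of 7.2 (2.7 to 118). CA1 pyramidal markers stood at 2908 against 1411 (410 to 6302), dentate granule markers at 5891 against 4209 (391 to 6684) and CA3 pyramidal markers at 5680 against 9901 (5508 to 18975). The part of these marker signals in the raised values was not tested.

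The CA3 library of rat R2185, also an old unimpaired animal, had 3 of 9 members raised, against 0.762% of genes. Irf7 stood at 206 (others 36.7 to 138, median 76.8), Isg15 at 99.5 (8.49 to 61.4, median 27.4) and Mx2 at 560 (181 to 438, median 258). In the Illumina table these 3 were again the highest of their subfield. In the Ion Proton table Isg15 stood at 76.3, with others up to 91.2. Oas1a, Rsad2, Rtp4 and Ifi27l2b were raised among the 39 further genes, together with the sensor Ifih1. In CA1 and DG of this rat, Irf7 stood at 97.6 and 91.3 and Isg15 at 34.1 and 32.8. Oligodendrocyte markers of the CA3 library summed to 230343, against a median of 130333 in the other CA3 libraries (46668 to 328534). Microglia markers stood at 7368 against 5903 (5042 to 11367), astrocyte markers at 43118 against 36565 (28683 to 45456), and dentate granule cell markers at 1042 against 481 (224 to 4785). The part of these markers in the raised values was not tested.

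The CA3 library of rat R9876, a young animal, had 4 of 9 members raised, but 5.76% of all genes were raised there too. Bst2 stood at 294 (others 41.8 to 177), Usp18 at 87.9 (17.3 to 73.6), Ifit3 at 67 (13.3 to 89.2) and Isg15 at 61.4 (8.49 to 99.5). In the Illumina table Bst2 and Usp18 were the highest of the CA3 libraries, while Ifit3 and Isg15 lay inside the range of the others. In the Ion Proton table all 4 were the highest, with Ifit3 at 63 (others up to 46.5) and Isg15 at 91.2 (up to 79.4). Its leptomeninges markers summed to 10616, against a median of 580 and a highest value of 1362 in the other CA3 libraries. Endothelium markers stood at 9420 against 2118, blood markers at 3152 against 731 (others up to 2461) and choroid plexus markers at 1497 against 264 (up to 12729). Astrocyte markers, at 28683, were the lowest of the CA3 libraries. Of the 39 further genes 12 were raised, with Ifitm2 at 702 against 49.7 and Ifitm3 at 384 against 67.9, and Oas1a at 53 against 11.9. The part of these tissue markers in the raised values was not tested.

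**Figure D5:**
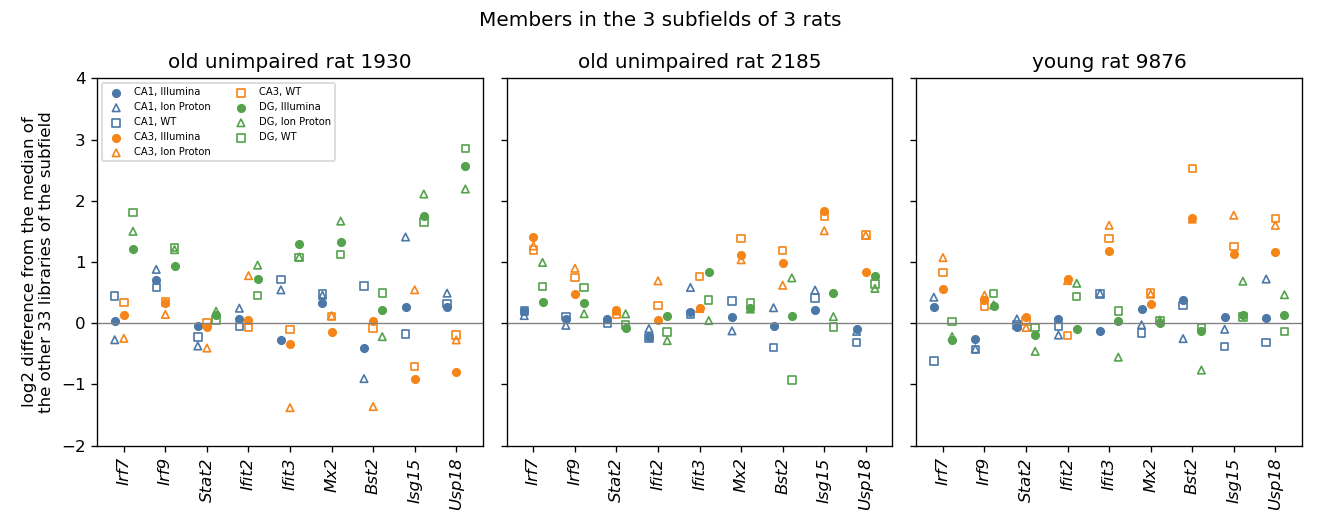
Log2 difference of each member from the median of the other 33 libraries of the subfield for rats R1930, R2185 and R9876, in CA1, CA3 and DG, with colours for the subfield and symbols for the Illumina, Ion Proton and WT tables. In rat R1930 the raised members Irf7, Ifit3, Mx2, Isg15 and Usp18 stand highest in DG, where Usp18 reached 2.57 in the Illumina table, and in rats R2185 and R9876 the raised members stand highest in CA3.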

How the data were processed

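Per the labels, total RNA was extracted from dissected CA1, CA3 and DG, and the authors made the Illumina and Ion Proton libraries from its poly-A mRNA. Illumina reads were processed by the authors with bcl2fastq 2.17, cutadapt 1.8.3, STAR 2.5 and featureCounts 1.4.4 on build rn5, and the deposited signal values are gene counts divided by DESeq2 (1.16.1) size factors. Ion Proton reads were aligned to the same build with TopHat2 and Bowtie2. The preparation behind the WT table and the strand setting of the counting are not given in the sources used here. Whole reads were recovered for 100% of values (within 0.01 reads). The members and lists were chosen with earlier results of these data known. Values were tested as log2(value + 1) with limma 3.58.1 (variance trend, R 4.3.3) over all genes with a mean of at least 10, with Benjamini-Hochberg adjustment and two-sided p-values. Correlations used 100000 permutations. Alternatives were other tables, pseudocounts, filters and quantile normalisation, edgeR 4.0.16 and DESeq2 1.42.0 on recovered reads, omission of libraries or rats, and the rat as a block. Libraries of 1 rat come from the same animal, which gives the pairing, and the median correlation of their deviations was 0.09, 0.19 and -0.03 for CA1 with CA3, CA1 with DG and CA3 with DG. Up to 3 genes called or retested per list were named, by largest change, and for each member the 3 most correlated genes. The scripts were tested on simulated data. P-values of comparisons within a subfield measure the spread between rats. Those between subfields, and of the interaction, were fitted without the rat as a block. They ignore the pairing and measure the spread between libraries.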

Additional observations from a re-analysis of the deposited data

Results flagged for a closer look

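In each group of 10 young libraries, the highest and lowest value of a member was set against the gap to its neighbour (Dixon's test at 95%, critical value 0.466 for 10 samples). Of 27 such groups 3 were flagged, and chance alone flags about 1 in 20. All 3 were the CA3 library of rat R9876: Ifit2 stood at 166 (others 71.3 to 107), Isg15 at 61.4 (21.9 to 41.7) and Bst2 at 294 (55.9 to 120). The same library had leptomeninges markers at 10616 against a median of 580, and their part in these values was not tested.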

How the results depend on the processing

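Most counts of calls, 890, stayed equal or close to that of the main fit, whichever members made them up. They include the fits with 1 rat left out. Of single values, 294 kept their direction and side of the threshold. The number of members called changed as follows, and the cause was not tested. For CA1 against CA3 (0 called) it was 1 under quantile normalisation, edgeR, DESeq2 and without Ion Proton libraries with many genes at 0 (each Irf9), 1 without libraries with leptomeninges or choroid plexus markers and without the deeply sequenced rats (each Stat2), and 2 with the rat as a replicate block (Irf9 and Mx2). For CA1 against DG (1 called) it was 2 under edgeR, DESeq2 and without those Ion Proton libraries (Bst2 added), and 2 with the replicate block (Mx2 added). For CA3 against DG (0 called) it was 1 under edgeR, DESeq2 and without the deeply sequenced rats (Bst2), and 2 without those Ion Proton libraries (Stat2 and Bst2). The block changed no other call. For age in DG the retest (0 members) gave 1 without a filter on low values and without deeply sequenced rats (each Stat2), 1 under DESeq2 (Ifit3), 1 without leptomeninges or choroid plexus libraries (Bst2) and 2 with the number series as a covariate (Ifit3 and Stat2). For the maze group in DG it gave 1 under edgeR and DESeq2 (Usp18).

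Leaving out each rat in turn moved the count from 0 to 2 for CA1 against CA3 (rats R1931, R2185, R2232, R9865, R9870 and R9876), from 1 to 2 for CA1 against DG (R1930 and R9881), from 0 to 2 for the age retest in DG (15 rats, 2 members without R2233 or R9875), and from 0 to 1 for the maze retest in CA1 (Irf9 without R2232). For the number series it ranged from 1 to 2 in CA1 and, in DG, from 1 to 2 (Bst2 added without R9780), while CA3 gave 3 without R9781 and otherwise 4. The number series in CA1 (2 called) gave 0 in the Ion Proton table and 1 in the WT table, without a filter, under edgeR and DESeq2, without libraries nearer another subfield, without leptomeninges or choroid plexus libraries, and without deeply sequenced rats. In CA3 (4 called) it gave 0 in the Ion Proton table, 1 in the WT table and 2 without deeply sequenced rats, and in DG (1 called) 0 in the WT table. The count of correlations (6) was 0 in the Ion Proton table and 13 without rats with a library nearer another subfield. The median share of variance between rats (32.9%) was 12.7% in the Ion Proton and 15.5% in the WT table. Signs turned for Ifit2 with age in DG (-0.020, Ion Proton), Irf9 with maze group in CA1 (0.057, Ion Proton), and with the number series for Stat2 in CA1 (0.021, Ion Proton), Ifit2 in CA3 (0.055, Ion Proton), Ifit3 in CA3 (-0.010, WT) and Mx2 in CA3 (-0.056, WT).

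Low counts limit Isg15, Ifit3, Usp18 and Bst2. The Illumina library with the fewest Isg15 reads held 2, and 4 Ion Proton libraries had 3 or fewer reads of Isg15, 5 of Ifit3, 4 of Usp18, 3 of Bst2 and 1 of Irf7. Of Bst2, 24 WT libraries had 3 or fewer reads. In 5 Ion Proton libraries many well-expressed genes are listed at 0, so a low count there need not be a low level. All 5 are CA1 or CA3 libraries of aged rats, which limits the Ion Proton values for age and maze group in those subfields.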
